A study of Mus musculus with 8 samples.

Results

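Tcf7, Lef1, Bach2, Id2, Id3, Foxo1, Klf2, Satb1 and Il7r, 9 genes known for T cell quiescence, stemness and memory, were followed by gene symbol through the 8 raw count tables, out of 49212 genes listed. The study sequenced RNA from CD44+ effector Treg (eTreg) cells, gated as CD45+CD3+CD4+YFP+, from C57BL/6 mice bearing B16-OVA melanoma and immunized with NP-OVA. Cells were sorted from the spleen and from the tumor-infiltrating lymphocytes (TIL) of control mice with Foxp3 YFP-Cre alone (WT) and of mice in which both Prdm1 alleles were floxed as well (Prdm1 fl/fl Foxp3 YFP-Cre, KO), in 4 groups of 2 libraries, at a tumor size of at most 1.5 cm3. YFP-Cre was driven by Foxp3 in both genotypes, so the controls carried it too, and Blimp1, the product of Prdm1, was to be deleted in cells that express Foxp3 or once did. The study's methods put its mice at a few weeks of age, with no age given per library. The labels do not say whether the 2 libraries of a group came from separate or pooled mice, so p-values here measure the spread between these libraries, which may be technical.

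TCF-1, encoded by Tcf7, and LEF1 are related HMG-box factors that keep T cells in a stem-like or memory state and act with β-catenin downstream of Wnt. Id2 and Id3 bind E proteins and keep them off DNA, Id3 being typical of memory precursors and follicular cells and Id2 of effector cells. Foxo1, held in check by PI3K and AKT, drives Klf2 and Il7r, the receptor chain for the survival cytokine IL-7; Klf2 in turn drives the egress receptor S1pr1. Bach2 is a bZIP repressor that restrains effector differentiation and competes with AP-1 factors, and Satb1 folds chromatin during T cell and Treg development. Blimp1 is a zinc-finger repressor typical of effector T cells and eTreg cells, so the comparisons ask how these genes stood in the tumor and in the absence of Blimp1.

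The sequences ahead of a RefSeq start of Klf2 and Bach2 are shown because these genes were among those with the widest differences below, and because Blimp1 binds a GAAAG-type element. They are written 5′ to 3′ on the gene's strand, from RefSeq on GRCm38.p6, with capitals marking a match to AGNGAAAG on either strand. Klf2 stands at chr8:72318812-72319032 (plus strand, 29 exonic bases left out) and Bach2 at chr4:32417185-32417434 (plus strand).
Klf2: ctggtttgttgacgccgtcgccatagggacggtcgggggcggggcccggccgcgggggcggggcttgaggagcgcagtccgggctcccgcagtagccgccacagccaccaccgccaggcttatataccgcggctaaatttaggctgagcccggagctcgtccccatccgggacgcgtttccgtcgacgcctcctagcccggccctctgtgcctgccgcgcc
Bach2: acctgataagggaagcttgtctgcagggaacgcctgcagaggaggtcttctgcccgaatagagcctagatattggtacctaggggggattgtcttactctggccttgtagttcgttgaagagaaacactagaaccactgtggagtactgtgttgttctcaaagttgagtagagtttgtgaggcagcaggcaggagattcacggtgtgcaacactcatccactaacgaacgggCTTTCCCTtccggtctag
As the count tables annotate them on GRCm38, the exons of Tcf7 span chr11:52252371-52283014, those of Klf2 chr8:72319033-72321656, those of Bach2 chr4:32238804-32586108 and those of Id3 chr4:136143497-136145755. The Bach2 window lies in an intron of the gene as the count tables annotate it, 179 kb from the first annotated base, and ahead of an internal start in RefSeq. The counted exons of Tcf7 end at base 52283014 of chromosome 11, so reads from any exon further upstream would not be among its counts. The 250 bases next to them, one of the windows searched below, are not printed as upstream sequence: from their first ATG a reading frame of 55 codons without a stop runs to the end, so they may hold a first coding exon of the gene that was not counted.
All 9 genes matched, with 17 windows of 250 bases between them. AGNGAAAG occurred in 1 of these windows, that of Bach2, on the minus strand with its first base 18 bases ahead of the start, and in 7.3% of 32851 RefSeq windows of the same length. The TCF and LEF motif ATCAAAG (3.21% of all windows) and the Foxo motif GTAAACA (3.17%) were not found in the 17 windows on either strand. A match is a string of letters, not a bound site.

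The libraries held 27834676 to 43903859 counts on genes, so 3 counts corresponded to 0.0644 to 0.112 CPM (counts scaled to the TMM-adjusted library size), and every level given below is above that. Counts of Prdm1, the targeted gene, cover all its annotated exons and not the floxed part alone, so they check the genotype labels weakly. Prdm1 measured 108 and 192 CPM in WT TIL, 90.7 and 75.1 CPM in KO TIL, 54.1 and 21.02 CPM in WT spleen and 40.7 and 53.4 CPM in KO spleen. The KO TIL libraries were below both WT TIL libraries (log2 fold change -0.86, SE 0.37, edgeR adjusted p = 0.554), while the splenic groups overlapped.

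The 2 KO TIL libraries stood apart from the sorted phenotype. Foxp3, which defines Treg cells, measured 10.2 and 2.99 CPM there, against 25.5 and 60.5 CPM in WT TIL and 43.1 to 69.6 CPM in the 4 splenic libraries. Cd4 measured 148 and 66.2 CPM in KO TIL against 807 and 1086 CPM in WT TIL, and Cd8a measured 217 and 1214 CPM against 71.8 and 9.69 CPM. Over the marker lists, no marker of the CD8 T cell, macrophage or dendritic cell lists was at 0 in any library. The summed CD8 T cell list (6 genes) reached 707 and 3082 CPM in KO TIL, 228 and 127 CPM in WT TIL and 64.1 to 82.7 CPM in spleen. The macrophage list (8 genes) reached 14764 and 1719 CPM in KO TIL and 3164 and 541 CPM in WT TIL, and the dendritic cell list (7 genes) 10523 and 1599 CPM against 1508 and 764 CPM. The genes of the dendritic cell list did not all move alike, 5 of the 7 having a positive log2 fold change between KO and WT TIL. H2-Aa alone measured 2470 and 378 CPM in KO TIL. Zbtb46 (19.1 and 10.9 CPM against 20.4 and 21.9 CPM in WT TIL) and Xcr1 (19.4 and 15.1 CPM against 19.6 and 15.7 CPM) were not higher there. The summed B cell list (8 genes) was highest in spleen, at 1196 to 1581 CPM, with 293 and 138 CPM in KO TIL and 339 and 493 CPM in WT TIL. The Treg list (7 genes) summed to 797 and 1389 CPM in KO TIL and 6575 and 9149 CPM in WT TIL. Several of the 9 genes are also used by CD8 T cells, NK cells or B cells, and the part of these cells in the results was not tested. In these bulk samples fewer cells of a type and less RNA per cell cannot be told apart. Fold changes of the 9 genes that rest on the KO TIL libraries are therefore also given without the first or the second of them, the lone library then being assumed to vary like the others.

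**Figure D1:**
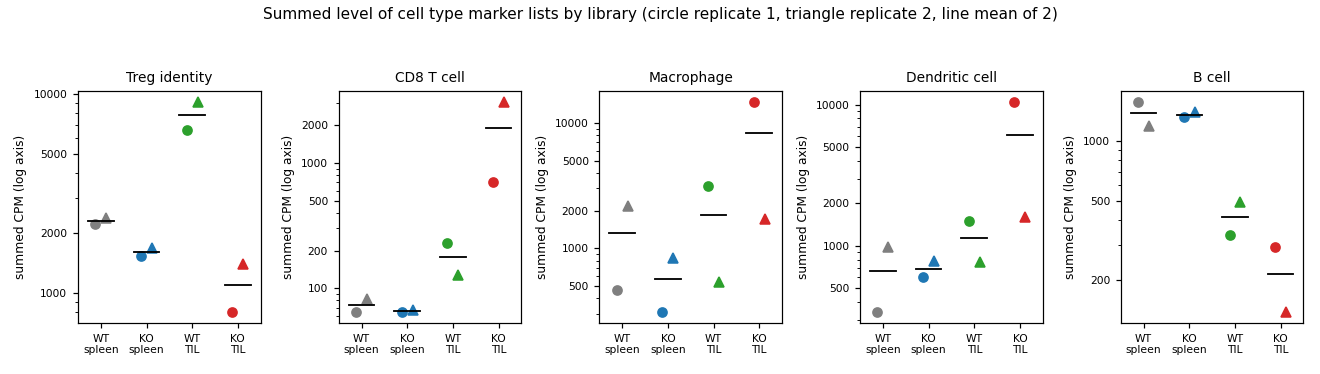
Summed CPM of 5 marker lists (log axis) in the 8 libraries, circles for replicate 1, triangles for replicate 2 and lines for the mean of 2. The KO TIL libraries have the lowest Treg sums (797 and 1389 CPM) and the highest CD8 T cell sums (707 and 3082 CPM).

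In WT mice, 5 of the 9 genes were lower in TIL eTreg cells than in splenic eTreg cells beyond the threshold (edgeR adjusted p under 0.05 and more than 1 on the log2 scale): Tcf7, Klf2, Id3, Bach2 and Foxo1. In that direction 1.87% of the 16427 genes tested passed, and the median log2 fold change was -1.86 over the 9 genes against -0.04 over all genes. DESeq2 on the same libraries called the same 5 genes lower (3.42% of genes) and Id2 higher (6.5% of genes).

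Tcf7 measured 266 and 222 CPM in WT spleen and 9.38 and 19.7 CPM in WT TIL. Both TIL libraries were more than 10-fold below both splenic ones, and the fitted difference was 16.8-fold (log2 fold change -4.07, SE 0.54, edgeR adjusted p = 0.00305). Lef1, its partner in the family, measured 141 and 137 CPM in WT spleen and 38.8 and 65.9 CPM in WT TIL. It was lower in both TIL libraries without passing the test (log2 fold change -1.41, SE 0.45, edgeR adjusted p = 0.107).

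Klf2, which ties quiescence to recirculation, gave the largest fold of the 9 genes. It measured 103 and 278 CPM in WT spleen and 4.31 and 8.44 CPM in WT TIL, a 30.0-fold difference (log2 fold change -4.91, SE 0.66, edgeR adjusted p = 0.00307). Foxo1, upstream of Klf2, was 121 and 182 CPM in WT spleen and 36.6 and 47.3 CPM in WT TIL (log2 fold change -1.86, SE 0.46, edgeR adjusted p = 0.0405). Il7r, another Foxo1 target, did not follow them: it measured 225 and 337 CPM in WT spleen and 136 and 502 CPM in WT TIL, the 2 TIL libraries lying on either side of the splenic ones (log2 fold change 0.18, SE 0.60, edgeR adjusted p = 0.903). S1pr1, the egress receptor driven by Klf2, was also lower in WT TIL, by 1.95 on the log2 scale (edgeR adjusted p = 0.045).

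The Id genes stood in opposite directions. Id3 measured 119 and 226 CPM in WT spleen and 9.81 and 2.60 CPM in WT TIL (log2 fold change -4.80, SE 0.72, edgeR adjusted p = 0.00489). Id2 measured 191 and 435 CPM in WT spleen and 996 and 1198 CPM in WT TIL, higher in both TIL libraries but short of the threshold (log2 fold change 1.80, SE 0.53, edgeR adjusted p = 0.0809). Bach2, the least expressed of the genes, measured 17.6 and 18.9 CPM in WT spleen and 1.01 and 1.99 CPM in WT TIL, where it rested on 28 and 59 counts. It was lower there (log2 fold change -3.60, SE 0.63, edgeR adjusted p = 0.00924). Satb1 measured 47.6 and 51.6 CPM in WT spleen and 22.8 and 32.2 CPM in WT TIL (log2 fold change -0.85, SE 0.44, edgeR adjusted p = 0.308), so its groups did not overlap but the difference did not pass.

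Tcf7 and Klf2 passed with each of the 4 libraries left out in turn. Without the second WT spleen library Id3 (edgeR adjusted p = 0.0575), Bach2 (edgeR adjusted p = 0.0613) and Foxo1 (edgeR adjusted p = 0.0918) no longer passed, and Id2 did (log2 fold change 2.56, edgeR adjusted p = 0.0373). Without the first WT TIL library Bach2 (edgeR adjusted p = 0.0617) and Foxo1 (edgeR adjusted p = 0.616) did not pass, and without the second one Foxo1 did not (edgeR adjusted p = 0.28).

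**Figure D2:**
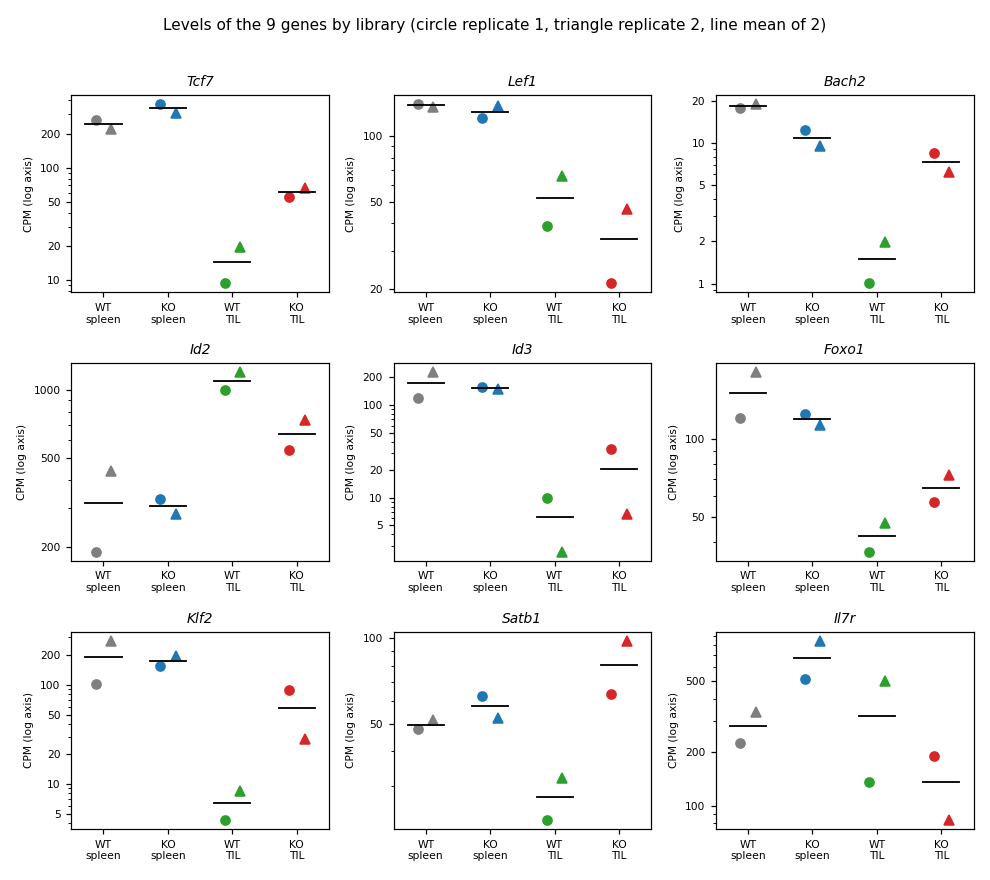
CPM of each of the 9 genes (log axis) in the 8 libraries, circles for replicate 1, triangles for replicate 2 and lines for the mean of 2. Tcf7, Bach2 and Klf2 are lowest in WT TIL, with KO TIL between WT TIL and spleen, whereas Id2 is highest in WT TIL (996 and 1198 CPM).

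In KO mice, Tcf7 was the gene of the 9 that differed between TIL and spleen beyond the threshold. It measured 371 and 307 CPM in KO spleen and 55.1 and 66.3 CPM in KO TIL (log2 fold change -2.47, SE 0.23, edgeR adjusted p = 0.0374). In that direction 0.543% of the 16933 genes passed, and the median log2 fold change was -1.55 over the 9 genes against 0.01 over all genes. DESeq2 on these libraries called 4 of the genes lower (Tcf7, Lef1, Id3 and Il7r, where 6.58% of genes were called) and Id2 higher (where 13.1% were). Leaving out either KO spleen library ended the call of Tcf7 (edgeR adjusted p = 0.16 and 0.136), while it passed without the first KO TIL library (edgeR adjusted p = 0.000679) and without the second (edgeR adjusted p = 0.000974). With the first KO TIL library left out 6 of the 9 genes passed, in a fit that called 3549 genes in all, and with the second left out 5 did, in a fit that called 4958.

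The other genes of the KO groups were less far apart or more spread. Id3 measured 157 and 147 CPM in KO spleen and 33.7 and 6.70 CPM in KO TIL (log2 fold change -2.88, SE 0.82, edgeR adjusted p = 0.0986). Lef1 measured 121 and 138 CPM in KO spleen and 21.3 and 46.3 CPM in KO TIL (log2 fold change -1.94, SE 0.41, edgeR adjusted p = 0.0669). Il7r, which overlapped in WT mice, measured 512 and 844 CPM in KO spleen and 191 and 83.4 CPM in KO TIL (log2 fold change -2.28, SE 0.54, edgeR adjusted p = 0.0749). The differences of these 3 genes missed the threshold. Klf2 measured 155 and 196 CPM in KO spleen and 89.4 and 28.2 CPM in KO TIL (log2 fold change -1.55, SE 0.60, edgeR adjusted p = 0.168), and Foxo1 measured 125 and 114 CPM against 57.1 and 72.8 CPM (log2 fold change -0.87, SE 0.21, edgeR adjusted p = 0.0792). Bach2 measured 12.3 and 9.43 CPM in KO spleen and 8.41 and 6.21 CPM in KO TIL (log2 fold change -0.55, SE 0.37, edgeR adjusted p = 0.371), a narrower gap than in WT mice. Satb1 was the reverse of the WT pattern, with 62.8 and 52.4 CPM in KO spleen and 63.5 and 98.2 CPM in KO TIL (log2 fold change 0.50, SE 0.27, edgeR adjusted p = 0.288). Id2 measured 327 and 282 CPM in KO spleen and 543 and 735 CPM in KO TIL (log2 fold change 1.08, SE 0.25, edgeR adjusted p = 0.0743). Without the first KO TIL library the log2 fold change was -2.36 for Tcf7, -1.49 for Lef1, -4.51 for Id3, -3.03 for Il7r, -2.64 for Klf2 and 1.27 for Id2, which all passed, and -0.72 for Foxo1, -0.81 for Bach2 and 0.77 for Satb1. Without the second it was -2.58 for Tcf7, -2.56 for Lef1, -2.13 for Id3, -1.79 for Il7r and -1.02 for Foxo1, which passed, and -0.93 for Klf2, 0.88 for Id2, -0.32 for Bach2 and 0.19 for Satb1. Each gene kept its sign in both fits.

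Between the genotypes in the tumor, Tcf7, Klf2, Bach2, Satb1 and Foxo1 had both KO libraries above both WT libraries, and Id2 had them below, but none of the 9 genes passed edgeR's test after adjustment. Among all 15935 genes 0% passed (0 genes, with 1573 at an unadjusted p under 0.05). The same lack of overlap was seen in 18% of all genes with KO higher and in 19.4% with KO lower, so the counts of 5 and 1 are read against those shares. The median log2 fold change was 1.55 over the 9 genes and 0.04 over all genes.

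From the values above, Tcf7 stood 4.15-fold higher in KO TIL (log2 fold change 2.05, SE 0.45, unadjusted p = 0.00549 and adjusted p = 0.264, edgeR). Klf2 stood 9.17-fold higher (log2 fold change 3.20, SE 0.70, unadjusted p = 0.00533 and adjusted p = 0.264, edgeR), with the first KO TIL library about as far from the second as the second was from WT TIL. Satb1 had a log2 fold change of 1.55 (SE 0.37, unadjusted p = 0.0076 and adjusted p = 0.285, edgeR) and Bach2 of 2.28 (SE 0.59, unadjusted p = 0.0108 and adjusted p = 0.308, edgeR). These 4 genes were the members with an unadjusted p under 0.05 in edgeR, all higher in KO, as were 6.34% of all genes. DESeq2 on the same 4 libraries called the same 4 genes, with adjusted p of 0.000425 for Klf2, 0.00798 for Tcf7, 0.013 for Bach2 and 0.0405 for Satb1, and called 3.48% of genes higher. In edgeR 4 of the 9 genes passed with no filter on low counts (1072 genes in all). Whether these genes count as changed in KO TIL thus depended on the tool and on settings of the fit.

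The remaining genes gave smaller or more variable differences in the tumor. Foxo1 had a log2 fold change of 0.63 (SE 0.31, edgeR adjusted p = 0.612) and Id2 of -0.78 (SE 0.34, edgeR adjusted p = 0.55). Id3 (log2 fold change 1.70, SE 0.98), Lef1 (log2 fold change -0.63, SE 0.50) and Il7r (log2 fold change -1.23, SE 0.73) overlapped between the genotypes. Without the first KO TIL library, which had the highest macrophage and dendritic cell sums, the log2 fold change was 2.18 for Tcf7, 2.14 for Klf2, 2.04 for Bach2, 1.84 for Satb1, 0.79 for Foxo1, 0.11 for Id3, -0.18 for Lef1, -0.58 for Id2 and -1.94 for Il7r. Without the second, which had the highest CD8 T cell sum, it was 1.90 for Tcf7, 3.79 for Klf2, 2.46 for Bach2, 1.19 for Satb1, 0.42 for Foxo1, 2.42 for Id3, -1.32 for Lef1, -1.04 for Id2 and -0.76 for Il7r. The value of Id3 rested on the first KO TIL library. No member passed in any of the fits with a TIL library left out.

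GC content moved with part of these differences. Klf2, Bach2 and Foxo1 have a stretch of 200 nt in their longest transcript with 81.5%, 81% and 81% GC. Genes whose richest stretch held 80 to 85% GC gave a median log2 fold change of 1.04 between KO and WT TIL (727 genes). Between WT TIL and WT spleen their median was -0.71 (725 genes). Measured against genes of like GC content, in a comparison added after the data were seen, the difference between KO and WT TIL was 2.16 for Klf2, 1.24 for Bach2 and -0.41 for Foxo1 on the log2 scale. Tcf7 (64.5% GC) and Satb1 (74.5% GC) fell in ranges whose medians were near 0, and stood 2.06 and 1.52 above them. The range of Tcf7 is uncertain, since the 250 bases next to its counted exons, which may hold a first exon, have 76% GC. A transcript with these bases could fall in a range of higher median (0.26 at 75 to 80% GC and 1.04 at 80 to 85%). In WT TIL against spleen Klf2 kept a difference of -4.20, Bach2 of -2.90 and Foxo1 of -1.15 on the log2 scale.

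**Figure D3:**
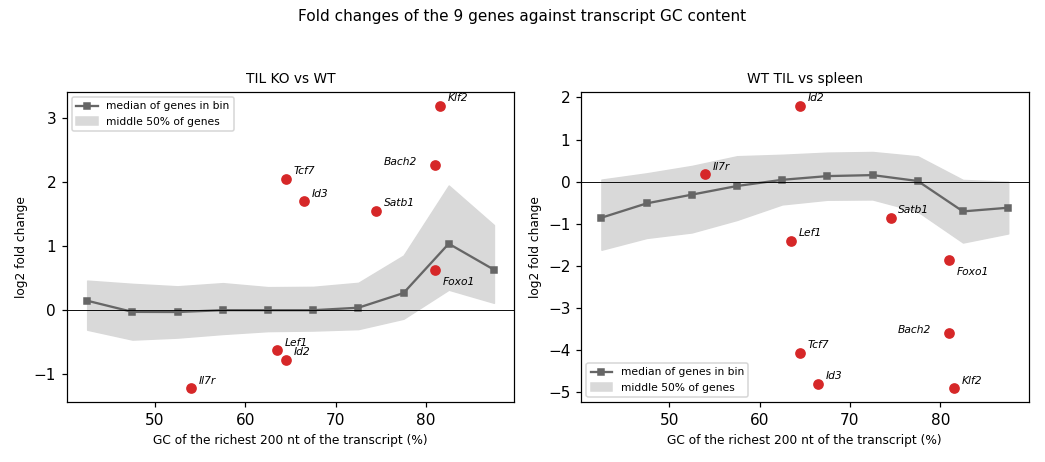
log2 fold change of the 9 genes (red) against the GC percentage of the richest 200 nt of the longest transcript, with the median (line) and middle 50% (band) of all genes in ranges of 5 percentage points, for KO against WT TIL and for WT TIL against spleen. In KO against WT TIL the median rises to 1.04 at 80 to 85% GC, and Foxo1 (0.63) lies below it.

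In spleen the genotypes were close for most of the 9 genes. None of the 9 genes passed edgeR's test (0% of 16583 genes, with 489 at an unadjusted p under 0.05), none was called by DESeq2 (0.416% of genes), and the median log2 fold change was -0.11 against -0.02 over all genes. Il7r was the member with the largest difference, 512 and 844 CPM in KO spleen against 225 and 337 CPM in WT spleen (log2 fold change 1.26, SE 0.43, unadjusted p = 0.0212 and adjusted p = 0.878, edgeR), where 1.53% of genes had an unadjusted p under 0.05 with KO higher. Without the first WT spleen library Il7r passed (log2 fold change 1.07, edgeR adjusted p = 0.0246), in a fit that called 3972 genes. Il7r, Tcf7 (log2 fold change 0.47, SE 0.34) and Satb1 (log2 fold change 0.21, SE 0.32) were higher in both KO spleen libraries, as were 16.4% of all genes, and Bach2 (log2 fold change -0.76, SE 0.36, edgeR adjusted p = 0.878) was lower in both, as were 15.7%. Klf2, Id2, Id3, Lef1 and Foxo1 overlapped, with log2 fold changes of -0.35 to -0.05.

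The genotype difference itself was compared between the tissues by an interaction term over the 8 libraries, (KO minus WT in TIL) minus (KO minus WT in spleen) on the log2 scale. No member passed in edgeR, and 0% of the 17870 genes did (0 genes, with 1399 at an unadjusted p under 0.05), while DESeq2 called Klf2 and Bach2 (1.27% of genes called in that direction). Bach2 gave 3.03 (SE 0.65, unadjusted p = 0.00138 and adjusted p = 0.259 in edgeR, adjusted p = 0.00369 in DESeq2), being lower in KO spleen and higher in KO TIL than in the WT libraries of the same tissue. Klf2 gave 3.32 (SE 0.92, adjusted p = 0.364 in edgeR and 0.0239 in DESeq2). Both genes fall in the range of 80 to 85% GC, whose median between KO and WT was 1.04 in TIL and -0.035 in spleen. The interaction was not set against genes of like GC content. With Tcf7 (1.58, SE 0.56), Satb1 (1.34, SE 0.49) and Il7r (-2.49, SE 0.91), 5 members had an unadjusted p under 0.05 in edgeR, against 7.83% of genes. Without the first KO TIL library the interaction of Bach2 was 2.79 and that of Klf2 2.24, and without the second they were 3.25 and 3.96. In the same order, Tcf7 gave 1.70 and 1.45, Satb1 1.61 and 1.01 and Il7r -3.22 and -1.99, and no member passed.

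The mean genotype difference over both tissues was also fitted on the 8 libraries. No member passed in edgeR, where 5 genes (0.028%) did, and DESeq2 called Tcf7 and Klf2 (1.81% of genes called higher). Tcf7 gave the smallest p of the 9 genes, with a mean log2 difference of 1.27 (SE 0.28, unadjusted p = 0.00169 and adjusted p = 0.176 in edgeR, adjusted p = 0.00737 in DESeq2) and KO above WT in both tissues. Tcf7, Klf2 (1.54, SE 0.46), Satb1 (0.89, SE 0.24) and Bach2 (0.77, SE 0.32) had an unadjusted p under 0.05 with KO higher, as had 5.11% of genes. Without the first KO TIL library the mean difference was 1.34 for Tcf7, 1.02 for Klf2, 1.03 for Satb1 and 0.65 for Bach2, and without the second it was 1.18, 1.82, 0.69 and 0.85. That of Id3, 0.76 with all libraries, was -0.025 without the first and 1.11 without the second. The comparisons share libraries, so their values are not independent of each other.

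**Figure D4:**
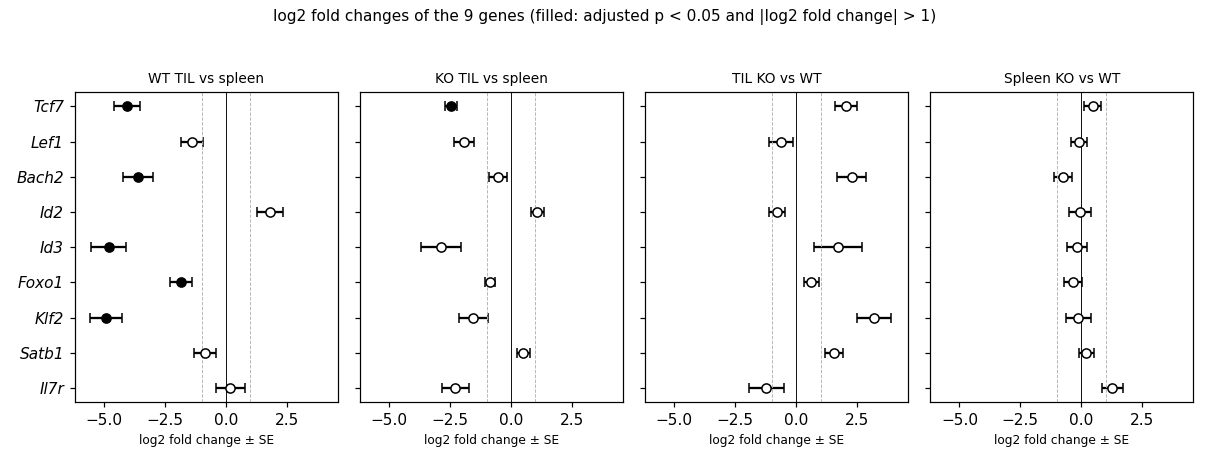
log2 fold change ± SE (edgeR) of the 9 genes in the 4 comparisons of 2 groups, filled where the adjusted p was under 0.05 with more than 1 on the log2 scale. Filled points are Tcf7, Bach2, Id3, Foxo1 and Klf2 in WT TIL against spleen and Tcf7 in KO TIL against spleen; none is filled between the genotypes.

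Ratios of 2 genes within a library do not depend on how libraries were scaled, and are given without a test, since 2 libraries against 2 cannot go below an exact permutation p of 0.333. Id2 over Id3 was 1.60 to 2.08 in the 4 splenic libraries, 16.1 and 110 in KO TIL and 102 and 461 in WT TIL, so the TIL groups overlapped. Tcf7 over Lef1 was 0.242 and 0.300 in WT TIL, below 1, and between 1.43 and 3.06 in the other 6 libraries, KO TIL (2.59 and 1.43) being within the range of spleen or near it. Tcf7 over Prdm1 was 4.92 to 10.6 in spleen, 0.607 and 0.883 in KO TIL and 0.0865 and 0.103 in WT TIL, so the 3 kinds of library did not overlap.

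**Figure D5:**
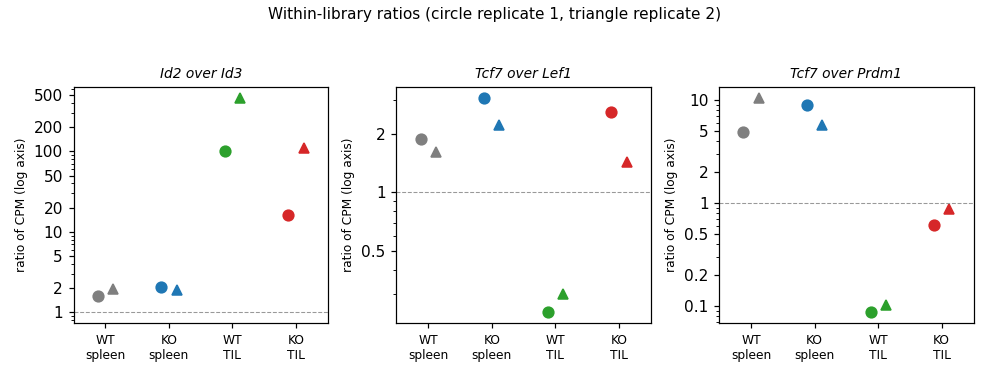
Ratio of CPM within each of the 8 libraries (log axis, dashed line at 1) for Id2 over Id3, Tcf7 over Lef1 and Tcf7 over Prdm1, circles for replicate 1 and triangles for replicate 2. Tcf7 over Lef1 lies below 1 in the WT TIL libraries (0.242 and 0.300) and above 1 in the other 6.

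Per kilobase of counted exons, which allows levels of different genes to be set side by side, Id2 had the highest mean level in each group and Bach2 the lowest. In WT spleen Id2 (247 ± 136 CPM per kb, SD, n = 2) was followed by Klf2, Id3, Tcf7 and Il7r at 103 to 87.7 CPM per kb, whose libraries overlapped from one gene to the next, and then by Foxo1 and Lef1 at 17.5 and 15.8 CPM per kb. In KO spleen Il7r (211 ± 73.2 CPM per kb, SD, n = 2) overlapped Id2 (240 ± 25.1), and Tcf7 came next at 129 ± 17.2 CPM per kb. In WT TIL Il7r (99.5 ± 80.6 CPM per kb) came after Id2 (864 ± 112), and Lef1, Tcf7, Foxo1, Id3 and Klf2 lay together between 5.95 and 3.45 CPM per kb, each overlapping its neighbour in the order. In KO TIL Il7r, Klf2 and Tcf7 (42.8, 31.8 and 23.1 CPM per kb) overlapped in that order, ahead of Id3 (11.3 ± 10.7 CPM per kb). Tcf7 and Klf2 thus stood among the higher members in KO TIL, while in WT TIL they lay within a narrow range, Klf2 at its lower end. Lef1, Bach2, Foxo1 and Satb1 share exonic bases with other annotated genes (Bach2 with the antisense Bach2os over 537 bases). Since the strand setting of the counting is not stated, reads over the antisense overlaps cannot be told apart. Satb1 also shares 156 bases with Gm36931 on its own strand, where no strand setting would separate the reads.

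Over the 8 libraries, the genes whose log2 CPM was most like that of Tcf7 among 17869 were Aff3 (Pearson r = 0.989), Cxxc5 (0.988), Eml5 (0.987), Rab40c (0.987) and Neurl4 (0.981). Aff3, an AF4-family nuclear protein, measured 28.4 to 50.7 CPM in spleen, 7.81 and 4.53 CPM in KO TIL and 0.826 and 1.62 CPM in WT TIL. Among the members, r with Tcf7 was 0.94 for Foxo1, 0.93 for Klf2 and for Bach2, 0.87 for Id3, 0.74 for Lef1, 0.58 for Satb1, 0.46 for Il7r and -0.90 for Id2. The 8 points fall into spleen and tumor, so these values describe the tissue difference first, and no test goes with them.

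Other genes of the same pathways were taken from 10 lists. In WT TIL against spleen 1.87% of all genes were called lower and 4.1% higher, with a median log2 fold change of -0.04. The naive and memory list had 6 of 20 genes lower and none higher, with a median of -1.09 on the log2 scale. These included Nsg2 (log2 fold change -4.09, SE 0.49, edgeR adjusted p = 0.00184), Treml2 (-2.67, edgeR adjusted p = 0.0229) and Il6ra, a receptor chain for IL-6 (-2.35, edgeR adjusted p = 0.0201). Of the 11 homing and egress genes, Cxcr5, the follicular homing receptor (log2 fold change -3.79, edgeR adjusted p = 0.00889), and S1pr1 were lower. The quiescence list (20 genes) held 1 gene lower, Klf3, a family member of Klf2 (log2 fold change -3.54, edgeR adjusted p = 0.00275), and 1 higher, the antiproliferative Tob2 (2.03, edgeR adjusted p = 0.03).

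Of the partners of Bach2, Fosl2 (log2 fold change 3.81, edgeR adjusted p = 0.00201) and Junb (1.93, edgeR adjusted p = 0.0404), AP-1 subunits, were higher in WT TIL and Jund (-2.15, edgeR adjusted p = 0.0231) was lower, out of 16 genes. In the Foxo list (22 of 23 genes tested) the PI3K-dependent kinase Sgk1 (2.62, edgeR adjusted p = 0.00909) and Gadd45b (1.96, edgeR adjusted p = 0.0311) were higher and none was lower. In the Wnt list (19 of 22 genes tested) the kinase Gsk3a, which marks β-catenin for degradation, was lower (-2.10, edgeR adjusted p = 0.0287), and in the IL-7 receptor list (14 of 15 genes tested) the survival factor Bcl2l1 was higher (1.85, edgeR adjusted p = 0.0418). No gene of the E protein or chromatin organizer lists passed. In the effector Treg list 6 of 18 genes were higher and none was lower, where 4.1% of all genes were called higher, among them Gzmb (4.69, edgeR adjusted p = 0.00201), Ctla4 (3.82, edgeR adjusted p = 0.00398) and Il10 (2.87, edgeR adjusted p = 0.00537).

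In KO TIL against spleen 6 genes of the lists passed, in a fit where 0.543% of all genes were called lower and 0.803% higher (228 genes, against 981 between WT TIL and spleen). DESeq2 called 3813 genes here and 1805 between WT TIL and spleen, and the difference between the genotypes in the lists was not tested by these counts. Cxcr5 (log2 fold change -3.95, edgeR adjusted p = 0.0353), S1pr1 (-3.35, edgeR adjusted p = 0.0366) and the integrin Itgb7 (-2.12, edgeR adjusted p = 0.0485) were lower among the homing genes, and Slamf6, a surface receptor of TCF-1-positive T cells, was lower among the naive and memory genes (-2.84, edgeR adjusted p = 0.0366). Fosl2 was higher (4.45, edgeR adjusted p = 0.0366) and Itgae of the effector Treg list lower (-3.87, edgeR adjusted p = 0.0374). The Wnt target Axin2 did not pass (-2.57, edgeR adjusted p = 0.0585), and no gene of the other lists did.

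Between KO and WT TIL no gene of the 10 lists passed in edgeR. Over all genes the median log2 fold change was 0.04. It was 0.65 for the naive and memory list, 0.70 for the Wnt list and 0.85 for the bZIP list. The E protein list (4 genes tested) gave 0.73, the quiescence list 0.37, the Foxo list 0.16 and the chromatin organizer list 0.09. The homing and egress list gave -0.12, the IL-7 receptor list -0.50 and the effector Treg list -2.49. In the effector Treg list 15 of 18 genes had an unadjusted p under 0.05 (edgeR), against 1573 of all 15935 genes. That list holds the targeted Prdm1, and shares Il2ra, Ctla4 and Tnfrsf18 with the Treg marker list. Klf3 had a log2 fold change of 2.24 (edgeR adjusted p = 0.301), Bcl2, a survival factor of memory cells, of 2.02 (edgeR adjusted p = 0.297), Gsk3a of 2.60 (edgeR adjusted p = 0.177) and Jund of 2.24 (edgeR adjusted p = 0.177). Eomes, which the CD8 T cell marker list also holds, measured 18.4 and 60.9 CPM in KO TIL against 2.95 and 1.22 CPM in WT TIL (log2 fold change 4.25, edgeR adjusted p = 0.228). Ccr8 (-3.70, edgeR adjusted p = 0.177) and Il2ra (-2.75, edgeR adjusted p = 0.177) of the effector Treg list stood lower in KO TIL. In spleen and in the interaction, too, no gene of the lists passed. In the effector Treg list Il10 (log2 fold change -4.05, edgeR adjusted p = 0.14) and Gzmb (-4.77, edgeR adjusted p = 0.19) stood lower in KO spleen. Of its 18 genes, 4 had a positive log2 fold change there. S1pr1 did not follow Klf2 between the genotypes in the tumor, with 53.5 and 68.9 CPM in KO TIL against 67.1 and 130 CPM in WT TIL. Its interaction was -1.41 (SE 0.55, unadjusted p = 0.031 and adjusted p = 0.572, edgeR), against 3.32 for Klf2.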

How the data were processed

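RNA of 8 libraries of sorted eTreg cells, 2 per group, was sequenced by the authors with an ultra-low input protocol. According to the submitters' processing notes, reads were trimmed with Trimmomatic 0.36, aligned with STAR 2.5.2b to GRCm38 and counted per gene with featureCounts (Subread 1.5.2). The deposited values used here are raw counts per gene, not normalized. The strand setting is not given in the sources used here. A deposited table of normalized counts of the whole series was not used, since it was made from these counts.

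CPM were computed on TMM-scaled library sizes. Each pair of groups was fitted alone with edgeR 4.0.16 (quasi-likelihood test, TMM, filterByExpr, R 4.3.3), the interaction and the mean genotype difference on 8 libraries, with Benjamini-Hochberg adjustment over all genes tested. Genes were called at adjusted p under 0.05 and more than 1 on the log2 scale, the thresholds of the study. The SE is the log2 fold change over the square root of F. Alternatives were DESeq2 1.42.0 (Wald test, the authors' own tool), other libraries, scaling and filters, a replicate block and each library left out. The scripts were tested on simulated counts. Fold changes of low genes depend on edgeR's prior count. The named genes are the members, Prdm1, the 3 genes per direction of each pathway list with the smallest adjusted p among those called (or up to 2 by unadjusted p where none was) and the 5 genes most like Tcf7 by Pearson r of log2 CPM (prior count 2). Members and lists were chosen with earlier results of these data known. GC content came from the longest GENCODE M21 transcript (95.3 to 96.2% of genes tested had one).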

Additional observations from a re-analysis of the deposited data

Results flagged for a closer look

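Bach2 moved in opposite directions between the genotypes in the 2 tissues: it was lower in both KO spleen libraries (12.3 and 9.43 CPM against 17.6 and 18.9 CPM in WT) and higher in both KO TIL libraries (8.41 and 6.21 CPM against 1.01 and 1.99 CPM in WT). The interaction on the log2 scale was 3.03 (edgeR adjusted p = 0.259, DESeq2 adjusted p = 0.00369). Genes in the GC range of Bach2 had a median log2 fold change of 1.04 between KO and WT TIL and -0.035 in spleen, which the interaction does not take out. Satb1 moved in opposite directions between the tissues in the 2 genotypes: WT TIL (22.8 and 32.2 CPM) lay below WT spleen (47.6 and 51.6 CPM), and KO TIL (63.5 and 98.2 CPM) lay above KO spleen (62.8 and 52.4 CPM), the first KO libraries of the 2 tissues nearly level. Its interaction was 1.34 (unadjusted p = 0.023 and adjusted p = 0.531, edgeR). The cause of either pattern was not tested.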

How the results depend on the processing

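The number of the 9 genes called depended on the tool and the filter. Between KO and WT TIL it was 0 in the edgeR fit reported, 4 with DESeq2 on the same libraries, 4 with DESeq2 on 8 libraries and 4 with no filter on low counts; over all genes the count ran from 0 to 1072. In KO TIL against spleen it was 1, against 5 and 4 with DESeq2 on the same and on 8 libraries, 2 with edgeR on 8 libraries, 5 with no filter and 0 to 6 with 1 library left out; over all genes it ran from 0 to 4958. In WT TIL against spleen it was 5 (981 genes called in all). It was 6 with DESeq2 on the same libraries (1805 genes), 7 with DESeq2 on 8 libraries (2166 genes) and 6 with no filter (1922 genes). In spleen it was 0, and 0 to 1 with 1 library left out, with up to 3972 genes called in all without the first WT spleen library. DESeq2 called 2 members each for the interaction and the mean genotype difference, and edgeR with no filter called 3 and 2. Over all genes the interaction gave 0, with 307 in DESeq2 and 752 with no filter, and the mean difference gave 5, with 435 and 799 and, with 1 library left out, 0 to 13. Low counts limit Bach2 in WT TIL most (28 and 59 counts). The cause of these shifts was not tested.

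The replicate numbers were not shown to pair libraries: deviations of same-numbered libraries correlated at -0.22 to 0.23 across pairs of groups. In fits with the replicate block, 3 of the 9 genes passed between KO and WT TIL (Tcf7, Klf2 and Satb1, with 728 genes in all). There were 0 in KO TIL against spleen (192 genes), 6 in WT TIL against spleen (1463 genes) and 0 in spleen (101 genes). The numbers crossed between the KO groups, a pairing added after the data were seen, gave 6 members and 2934 genes. The block reversed the sign of Id2 (0.068) and Klf2 (0.037) in spleen and of Il7r in WT TIL against spleen (-0.074).

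Most other reversals were of differences near 0. In spleen Id2 was 0.032 with no filter, and with 1 library left out Id2 ranged from -0.46 to 0.67, Klf2 from -0.61 to 0.77, Id3 from -0.51 to 0.36 and Lef1 from -0.19 to 0.0097. Il7r in WT TIL against spleen ranged from -1.01 to 0.85 with 1 library left out. The mean genotype difference of Il7r was -0.043 among genes with a mean of at least 50 counts and -0.33 to 0.64 with 1 library left out, and that of Id3, which was 0.76 with all libraries, ranged from -0.025 to 1.37. Foxo1 between KO and WT TIL, 0.63 in the fit reported, was -0.41 against genes of like GC content.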

Other observations

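Aff3, Cxxc5, Eml5, Rab40c and Neurl4, the genes most like Tcf7 over the 8 libraries, include 3 of low level: Cxxc5, a CXXC zinc-finger protein, measured 5.46 to 9.04 CPM in spleen, 2.67 and 1.95 CPM in KO TIL and 0.683 and 1.28 CPM in WT TIL. Eml5 measured 6.21 to 8.62 CPM in spleen, 2.98 and 3.89 CPM in KO TIL and 1.47 and 2.03 CPM in WT TIL. Neurl4 measured 6.89 to 8.57 CPM in spleen, 5.65 and 5.61 CPM in KO TIL and 3.05 and 3.75 CPM in WT TIL. Each was lowest in WT TIL, with KO TIL between it and spleen.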
